A study of Mus musculus with 19 samples.

Results

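The Toll-like receptors are the sensors with which monocytes detect microbial lipids, proteins and nucleic acids. The 9 receptor genes Tlr1, Tlr2, Tlr3, Tlr4, Tlr6, Tlr7, Tlr8, Tlr9 and Tlr13 and the co-receptor gene Cd14 were followed by name, as 10 of the 50854 genes with a row of counts, in RNA from sorted mouse bone marrow cells. To be tested a gene had to average 1 read or more per library, which held for all 10 and for 18652 genes in all. The mice were REP mice, in which separate fluorescent reporters mark the expression of the chemokine receptors CCR1 and CCR2, were female and were 8 to 12 weeks old, and no other allele or strain is given for these libraries. Cells with the CCR2 reporter alone are called CCR2+ve monocytes and those with the CCR1 and CCR2 reporters CCR1/2+ve monocytes. There were 4 libraries of resting CCR2+ve, 4 of resting CCR1/2+ve, 4 of inflamed CCR2+ve and 3 of inflamed CCR1/2+ve monocytes, and another 4 libraries labelled inflamed CCR1, of which the labels say nothing more. Inflamed mice carried a pump under the skin that released IL-3, IL-6, GM-CSF and IFN-α for a week. Whether resting mice carried a pump with vehicle, and how many mice gave each library, is not given in the sources used here, so p-values measure the spread between libraries, which may be in part technical.

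Toll-like receptors recognise their ligands as dimers and signal through adaptor proteins that meet the receptors at their cytoplasmic domains. Tlr2 pairs with Tlr1 or Tlr6 at the cell surface to detect bacterial lipoproteins. Tlr4 detects lipopolysaccharide there, which Cd14 hands over to it. Tlr3, Tlr7, Tlr8, Tlr9 and Tlr13 sit in endosomes. Tlr3 detects double-stranded RNA, Tlr7 single-stranded RNA, Tlr9 DNA with unmethylated CpG and Tlr13 a stretch of bacterial ribosomal RNA, while the ligands of mouse Tlr8 are less well defined. Adaptors such as Myd88 and Ticam1 pass the signal on to NF-κB and to interferon regulatory factors.

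The sorted cells were first checked against markers. A list of 8 monocyte genes summed to between 30830 and 59360 CPM (counts scaled to library size with TMM factors over the 19 libraries) in the 15 libraries sorted as CCR2+ve or CCR1/2+ve monocytes. In the 4 libraries labelled inflamed CCR1 it summed to between 7902 and 12580 CPM. Their label names no cell type, and most genes of the monocyte list were far lower in them than in inflamed CCR2+ve monocytes. Ccr2 stood at 5.82 ± 2.56 CPM (SD, n = 4) in them and at 1251 ± 125 CPM (SD, n = 4) in inflamed CCR2+ve monocytes, and Csf1r at 17.7 ± 4.44 CPM against 1504 ± 162 CPM. Ly6c2 (1421 ± 48.54 against 1856 ± 407.4 CPM) and Itgam (91.84 ± 10.29 against 113.6 ± 6.128 CPM) of the monocyte list differed far less. A list of 8 mature neutrophil genes, led by Ngp at 86040 ± 12720 CPM, summed to between 92350 and 136000 CPM in the inflamed CCR1 libraries and to at most 2310 CPM in the others, although 1 gene of that list, Mmp8, was lower in them (9.10 ± 3.62 CPM against 1044 ± 97.5 CPM in inflamed CCR2+ve monocytes). The group is called by its label below, is given no cell type, and is left out of the comparisons between resting and inflamed monocytes. Reads on genes ranged from 22268658 to 30502009 per library. Genes with a read numbered 18225 to 20020 in resting and 17011 to 18136 in inflamed libraries, and the 10 most abundant genes held 19.2% to 22.2% of reads in the inflamed CCR1 libraries and at most 12.4% in the others. In bulk RNA, fewer cells with a transcript and less of it per cell cannot be told apart.

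On the GRCm38 assembly, Tlr1 (chr5:64924679-64933563) and Tlr6 (chr5:64952031-64960097) are neighbours on the minus strand of chromosome 5. Tlr2 is at chr3:83836272-83841767, Tlr4 at chr4:66827584-66930284, Tlr3 at chr8:45395665-45411080 and Tlr9 at chr9:106222598-106226883. Tlr7 (chrX:167304929-167330558), Tlr8 (chrX:167242696-167264329) and Tlr13 (chrX:106143204-106160493) are on chromosome X. Of the exonic bases of Tlr3, 7.32% overlap Gm45542 on the other strand, and the strand of counting is not stated, so that reads of these bases could belong to either gene. Tlr1 and Tlr6 hold stretches that are alike base for base. Of their exonic 50-mers, 15.3% of those of Tlr1 and 12.6% of those of Tlr6 occur in another gene, for Tlr1 in Tlr6 alone. Only read pairs that aligned to 1 place were counted, so a pair that fell wholly within these stretches could be counted for neither gene, and how many were lost was not measured. The longest identical run of their coding sequences, 229 bases, spans coding bases 1468 to 1696 of the 2385 of Tlr1 and 1507 to 1735 of the 2418 of Tlr6 (GENCODE M21). It is shown because reads within it cannot tell these 2 genes apart unless a mate lies outside it:
Tlr1 and Tlr6 shared coding run: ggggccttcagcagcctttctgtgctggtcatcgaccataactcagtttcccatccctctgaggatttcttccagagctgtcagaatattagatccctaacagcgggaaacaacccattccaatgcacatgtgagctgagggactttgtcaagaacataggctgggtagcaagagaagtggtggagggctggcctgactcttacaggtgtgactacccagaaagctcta

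RefSeq's table of promoters for GRCm38.p6 holds entries for 7 of the 10 genes (Tlr1, Tlr2, Tlr3, Tlr6, Tlr8, Tlr9 and Tlr13). Up to 250 bases before each start site were searched on both strands for the interferon-stimulated response element (ISRE, GAAA and GAAA with 2 bases between, found in 2.98% of the 32851 promoters of the table), TTCNNNGAA (the GAS element of STAT factors, 7.02%), GAGGAA (the core of PU.1 sites, 23.3%), the NF-κB element (GGG and TTTCC with 2 bases between, 1.41%), TGANTCA (AP-1, 6.75%) and TGACGTCA (CRE, 1.55%). The 4 windows that hold no more than 5 exonic bases are printed, less those bases, because they belong to a gene that rose with inflammation in both populations (Tlr1, Tlr6) or to endosomal receptors that differed between resting populations (Tlr8, Tlr9). Each is written 5′ to 3′ on the strand of its gene, and capitals mark the matches:
Tlr1 (chr5:64933564-64933808, minus strand, 1 GAGGAA at bases −23 to −18 from the start site): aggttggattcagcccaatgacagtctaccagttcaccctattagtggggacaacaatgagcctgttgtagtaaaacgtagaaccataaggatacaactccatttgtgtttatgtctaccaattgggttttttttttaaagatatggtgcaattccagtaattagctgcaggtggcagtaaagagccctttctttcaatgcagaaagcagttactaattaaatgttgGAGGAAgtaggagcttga
Tlr6 (chr5:64959167-64959416, minus strand, 2 ISRE matches on the opposite strand that overlap each other, at −116 to −107 and −110 to −101): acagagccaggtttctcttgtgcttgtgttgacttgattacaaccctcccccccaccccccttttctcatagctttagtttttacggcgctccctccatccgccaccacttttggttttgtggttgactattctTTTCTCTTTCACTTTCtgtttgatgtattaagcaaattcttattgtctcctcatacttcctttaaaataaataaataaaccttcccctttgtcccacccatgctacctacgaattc
Tlr8 (chrX:167264330-167264579, minus strand, 1 TTCNNNGAA at −106 to −98 and 1 GAGGAA on the opposite strand at −77 to −72): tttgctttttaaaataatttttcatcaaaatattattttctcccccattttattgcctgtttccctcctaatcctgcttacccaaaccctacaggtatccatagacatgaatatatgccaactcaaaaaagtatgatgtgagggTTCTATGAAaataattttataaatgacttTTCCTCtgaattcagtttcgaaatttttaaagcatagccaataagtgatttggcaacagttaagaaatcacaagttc
Tlr9 (chr9:106222348-106222597, plus strand, 1 GAGGAA at −112 to −107 and 1 TGANTCA at −58 to −52): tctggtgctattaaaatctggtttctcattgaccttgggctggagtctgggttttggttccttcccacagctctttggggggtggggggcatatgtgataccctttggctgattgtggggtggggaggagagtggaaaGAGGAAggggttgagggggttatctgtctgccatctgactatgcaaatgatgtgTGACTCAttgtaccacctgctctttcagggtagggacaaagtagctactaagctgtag
The Tlr6 window lies inside the annotated gene, before a RefSeq start site that is downstream of the first. Of the windows not printed, that of Tlr3 holds the NF-κB element at −211 to −202, that of Tlr13 GAGGAA at −83 to −78 and a second window of Tlr1 TTCNNNGAA at −228 to −220, and those of Tlr2 and the first start of Tlr6 hold no match. A match describes letters in these windows and no binding was measured.

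Levels were compared between genes, among them Cd14, a gene of chromosome 18 with a single exonic block, as CPM per kb of exonic length. In resting CCR2+ve monocytes Tlr13 was the most abundant member, at 106 ± 25.1 CPM per kb (SD, n = 4), followed by Tlr2 at 52.6 ± 8.42, Cd14 at 36.7 ± 9.69, Tlr8 at 23.6 ± 1.67 and Tlr7 at 22.9 ± 3.91 CPM per kb. The ranges of Tlr2 and Cd14 overlapped, as did those of Tlr8 and Tlr7. Tlr6 (10.1 ± 0.910), Tlr4 (7.17 ± 1.04) and Tlr1 (5.89 ± 0.988) were lower, and Tlr9 (1.957 ± 0.5365) and Tlr3 (0.662 ± 0.256 CPM per kb) were the lowest. Tlr13, Tlr2, Cd14 and Tlr8 held ranks 1 to 4 and Tlr9 and Tlr3 ranks 9 and 10 in all 4 monocyte groups. The middle of the order moved. Tlr4 ranked 7 in both resting groups and 5 in both inflamed groups, where its range overlapped that of Tlr8 at rank 4, and Tlr7 ranked 5 in both resting groups and 7 in both inflamed groups. In the libraries labelled inflamed CCR1 the order was another one. Tlr4 came first there at 10.7 ± 1.55 CPM per kb, apart from Tlr2 at 3.43 ± 0.412, and Tlr13 was sixth at 1.60 ± 0.497 CPM per kb.

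**Figure D1:**
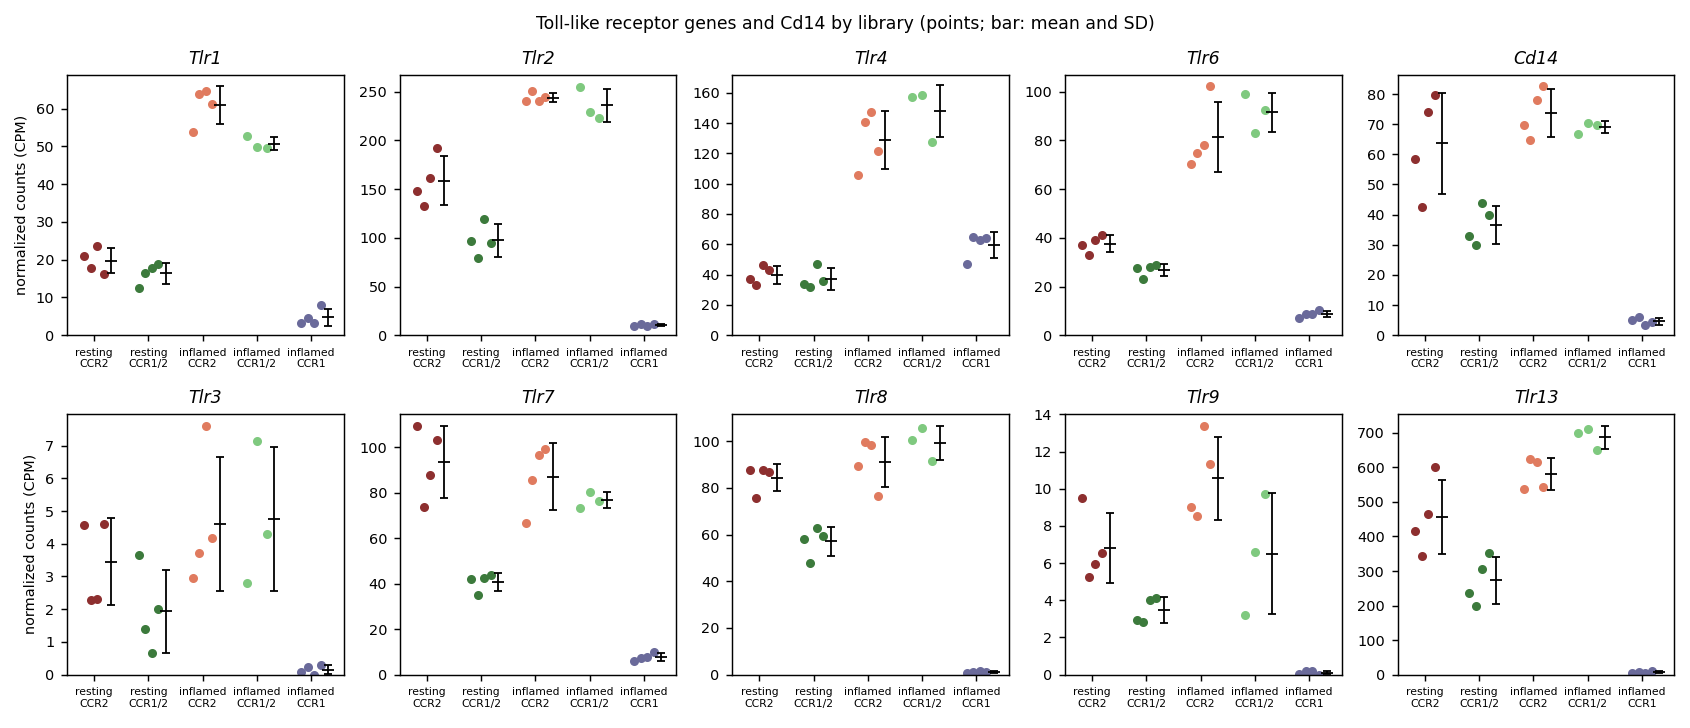
Normalized counts (CPM, y axis, from 0 and with its own scale in each panel) of the 10 genes in each of the 19 libraries (points) by group (x axis), with the group mean and SD as a bar. Tlr1, Tlr4 and Tlr6 were apart between resting and inflamed libraries in both populations, and Tlr8, Tlr9 and Tlr13 were near 0 in the inflamed CCR1 libraries (at most 1.48, 0.185 and 9.28 CPM).

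Resting CCR1/2+ve monocytes were compared with resting CCR2+ve monocytes to ask whether the 2 populations differ in these receptors at baseline. The endosomal RNA sensor Tlr7 was the single member past both cutoffs of the study (an adjusted p below 0.05 and a log2 fold change of at least 1 in size), and was lower in CCR1/2+ve cells. Its levels in the CCR1/2+ve libraries were 41.9, 34.8, 42.4 and 43.7 CPM, and in the CCR2+ve libraries 109, 73.8, 88.0 and 104 CPM. Every CCR1/2+ve library lay below every CCR2+ve library. This was a 2.18-fold difference (log2 fold change −1.13, SE 0.12, adjusted p = 8.88e-05 by the quasi-likelihood test of edgeR and Benjamini-Hochberg, exact two-sided permutation p = 0.0286, the smallest that 4 against 4 libraries allow). Of all genes tested, 4.25% passed both cutoffs, and 1.90% did so as lower.

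All of the other members had log2 fold changes below 0, 6 of which passed the test on the adjusted p alone, and those of Tlr1, Tlr3 and Tlr4 did not. The log2 fold change of Tlr4 was so small that it changed sign with scaling by library size alone (0.03) and in 4 of the 8 fits that each left out 1 library (between −0.15 and 0.04 over the 8). On the adjusted p alone 7 of 10 were lower and none higher, where 8.44% of all genes tested were lower by that rule and 8.44% higher. The median log2 fold change was −0.648 over the 10 members and 0.032 over all genes tested. Among the surface receptors, Tlr2 was measured at 96.4, 79.1, 119 and 94.7 CPM in the CCR1/2+ve libraries and at 148, 133, 162 and 192 CPM in the CCR2+ve libraries (log2 fold change −0.63, SE 0.12, edgeR adjusted p = 0.00329). The groups did not overlap. Tlr6, its partner, differed less, with 27.5, 23.0, 28.1 and 28.7 CPM against 37.1, 33.1, 39.0 and 41.1 CPM (log2 fold change −0.41, SE 0.09, edgeR adjusted p = 0.00876). Its groups were also apart. Cd14 stood at 32.99, 29.96, 43.75 and 39.81 CPM in CCR1/2+ve libraries and at 58.4, 42.4, 74.0 and 79.8 CPM in CCR2+ve libraries (log2 fold change −0.72, SE 0.16, edgeR adjusted p = 0.00961, exact permutation p = 0.0571). Replicate 2 of the CCR2+ve monocytes, the lowest of its group, overlapped the CCR1/2+ve range. Tlr1 and Tlr4 did not pass the test (log2 fold changes −0.19, 95% interval −0.50 to 0.13, and −0.03, 95% interval −0.30 to 0.24).

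Among the endosomal receptors, Tlr8 was at 58.2, 48.0, 62.6 and 59.5 CPM in CCR1/2+ve and at 87.8, 75.5, 87.8 and 86.7 CPM in CCR2+ve libraries (log2 fold change −0.49, SE 0.09, edgeR adjusted p = 0.00185). The DNA sensor Tlr9 was scarce, at 2.95, 2.81, 4.00 and 4.13 CPM against 9.49, 5.24, 5.94 and 6.57 CPM (log2 fold change −0.90, SE 0.22, edgeR adjusted p = 0.0138), and without CCR2+ve replicate 2 it reached the fold cutoff as well (−1.0013). Both genes were apart between the groups. Tlr13, the most abundant member, ran from 198 to 351 CPM against 345 to 601 CPM, with an overlap between CCR1/2+ve replicate 4 and CCR2+ve replicate 2 (log2 fold change −0.67, SE 0.17, edgeR adjusted p = 0.0195). The adjusted p of Tlr13 was 0.0856 without the filter on low counts and 0.0558 without CCR1/2+ve replicate 1. Tlr3, with 17 to 114 reads per library, did not pass the test (log2 fold change −0.74, 95% interval −1.69 to 0.20, adjusted p = 0.294). Replicate numbers pair these libraries by their correlation, and with the numbers as a block the edgeR adjusted p of Tlr3 was 0.0218 (log2 fold change −0.87). The ranges of 5 members (Tlr2, Tlr6, Tlr7, Tlr8, Tlr9) were apart, against 20.2% of all genes tested.

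Plasmacytoid and conventional dendritic cells also use Tlr7 and Tlr9, and the sums of their marker lists, though not every gene in them, moved along with these differences. The 7 plasmacytoid dendritic cell genes, all with reads, summed to 43.4 to 62.7 CPM in resting CCR1/2+ve and to 90.97 to 126.2 CPM in resting CCR2+ve libraries. Nearly all of that sum was Tcf4 (47.3 ± 7.98 against 107 ± 16.4 CPM, SD, n = 4), while the defining marker Siglech was at 0.891 ± 0.361 against 2.48 ± 0.836 CPM and no gene of the list was at 0 in a whole resting group. Ly6d (1.521 ± 0.3756 against 1.449 ± 0.4777 CPM) and Klk1 of that list had slightly higher means in CCR1/2+ve libraries, and Ccr9 was nearly level (0.8608 against 0.8753 CPM). The 6 conventional dendritic cell genes summed to 16.0 to 36.3 against 98.0 to 176 CPM, although Zbtb46 of that list was level (0.8782 against 0.8768 CPM). The monocyte list was lower too, at 30830 to 43470 against 45690 to 52050 CPM. The 9 tissue macrophage genes summed to 223.4 to 300.8 against 289.4 to 400.4 CPM, most of it Adgre1, but Vcam1 (26.19 ± 14.97 against 1.69 ± 1.127 CPM), C1qa, C1qb, C1qc and Cd5l of that list had higher means in resting CCR1/2+ve libraries. The share of reads on mitochondrial genes was also higher in each resting CCR1/2+ve library (0.585% to 0.987%) than in the CCR2+ve library of the same number (0.347% to 0.59%). The part of these cells and shares in the members' differences was not tested.

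**Figure D2:**
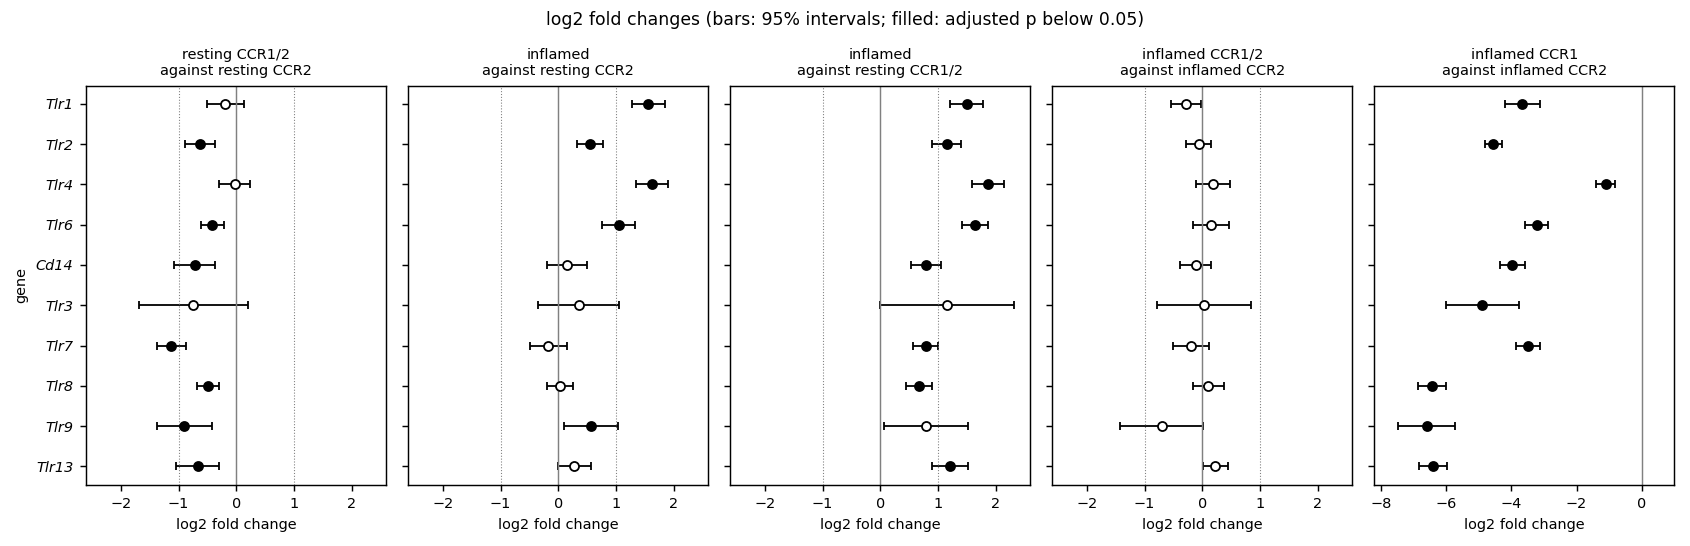
Log2 fold changes of the 10 genes (y axis) in 5 of the 6 comparisons between groups (x axis, log2 scale, the rightmost panel with its own range), with 95% intervals as bars and filled points for an adjusted p below 0.05. In the 2 comparisons of inflamed with resting monocytes the filled points of Tlr1, Tlr4 and Tlr6 lie at 1.05 or above, and in the comparison of the inflamed populations no point is filled.

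Inflamed CCR2+ve monocytes were compared with resting CCR2+ve monocytes to ask how cytokine-driven inflammation changed the receptors. Tlr4, Tlr1 and Tlr6 rose past both cutoffs, and the other members moved little or not measurably. Tlr4 was at 37.2, 33.1, 46.2 and 42.8 CPM in the resting and at 106, 140, 147 and 121 CPM in the inflamed libraries, a 3.08-fold rise (log2 fold change 1.62, SE 0.13, edgeR adjusted p = 7.03e-08). Tlr1 rose 2.94-fold, from 21.1, 17.8, 23.7 and 16.3 CPM to 53.8, 63.8, 64.7 and 61.3 CPM (log2 fold change 1.56, SE 0.13, edgeR adjusted p = 1.53e-07). For both genes each inflamed library exceeded each resting library more than 2-fold. Tlr6 rose 2.07-fold, from 37.1, 33.1, 39.0 and 41.1 CPM to 70.5, 74.8, 78.2 and 102 CPM (log2 fold change 1.05, SE 0.13, edgeR adjusted p = 9.25e-06). Inflamed replicate 4 was the highest, and without it the log2 fold change of Tlr6 was 0.90, under the cutoff, as it was with scaling by library size alone (0.98). Of all genes tested, 28.6% passed both cutoffs and 9.37% did so as higher.

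Tlr2 rose by less than the fold cutoff in CCR2+ve cells, from 133 to 192 CPM at rest to 240, 250, 240 and 244 CPM (log2 fold change 0.55, SE 0.11, edgeR adjusted p = 0.000563), without overlap. Its inflamed libraries lay close together, with a coefficient of variation of 1.97%, the lowest of any member in any group. On the adjusted p alone 5 of 10 members were higher and none lower, against 47.8% of all genes called by that rule, 21.9% as higher and 25.9% as lower, and 4 had ranges apart, against 45.7% of all genes. Tlr9 was the fifth, at 8.99, 8.55, 13.4 and 11.3 CPM in inflamed libraries (log2 fold change 0.56, SE 0.22, edgeR adjusted p = 0.0452), overlapping the resting range through resting replicate 1 at 9.49 CPM, and its adjusted p was above 0.05 in 8 of the 17 refits tried, 4 of which leave out 1 library each (0.0629 without resting replicate 3 to 0.144 without inflamed replicate 3). Cd14 did not pass the test, at 69.8, 64.9, 78.1 and 82.5 CPM in inflamed libraries (log2 fold change 0.15, 95% interval −0.19 to 0.50). Neither did Tlr7 (−0.17, interval −0.49 to 0.14), Tlr8 (0.04, interval −0.19 to 0.26), Tlr13 (0.28, interval −0.008 to 0.57, adjusted p = 0.102) or Tlr3 (0.36, interval −0.35 to 1.06). Without resting replicate 4, the highest of its group for Tlr13, the log2 fold change of Tlr13 was 0.51 and its edgeR adjusted p 0.00411. The median log2 fold change was 0.453 over the members and −0.103 over all genes tested. Beside this, the conventional dendritic cell list fell from 98.0 to 176 CPM at rest to 6.16 to 12.6 CPM, the tissue macrophage list stood at 289 to 400 against 557 to 760 CPM, and the mature neutrophil list at 448 to 732 against 1123 to 1359 CPM. Most of the tissue macrophage sum was Adgre1 (313.8 ± 48.09 against 537.6 ± 65.74 CPM). Vcam1, Cd163 and Cd5l of that list had lower means when inflamed and its other genes higher means. Most of the mature neutrophil sum was Mmp8 (547.6 ± 165.1 against 1044 ± 97.51 CPM). Ly6g of the neutrophil list had a slightly lower mean when inflamed (0.4463 against 0.4207 CPM) and its other genes higher means. The part of these lists was not tested.

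In CCR1/2+ve monocytes, the comparison of inflamed with resting cells found 5 members higher past both cutoffs, Tlr4, Tlr6, Tlr1, Tlr13 and Tlr2, and none lower, against 28.5% of all genes called, 9.16% as higher. Tlr4 rose 3.65-fold, from 34.0, 31.7, 47.3 and 35.5 CPM to 158, 158 and 128 CPM (log2 fold change 1.87, SE 0.13, edgeR adjusted p = 3.45e-07). Tlr6 rose 3.13-fold, from 27.5, 23.0, 28.1 and 28.7 CPM to 99.1, 83.1 and 92.6 CPM (log2 fold change 1.64, SE 0.10, edgeR adjusted p = 1.49e-07). Tlr1 rose 2.83-fold, from 12.57, 16.6, 17.68 and 18.95 CPM to 52.6, 50.0 and 49.6 CPM (log2 fold change 1.498, SE 0.13, edgeR adjusted p = 2.20e-06). The groups of these 3 surface receptors were far apart. Tlr13 rose 2.32-fold, from 237, 198, 306 and 351 CPM to 701, 710 and 650 CPM (log2 fold change 1.21, SE 0.14, edgeR adjusted p = 2.63e-05). Tlr2 rose 2.22-fold, from 96.4, 79.1, 119 and 94.7 CPM to 255, 229 and 223 CPM (log2 fold change 1.15, SE 0.11, edgeR adjusted p = 6.21e-06). With scaling by library size alone the log2 fold change of Tlr2 was 0.96. That scaling moved the median of all genes tested from −0.255 to −0.455, so the members' rises are relative to a median below 0.

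Cd14, Tlr7 and Tlr8 rose in CCR1/2+ve cells by less than the fold cutoff. Cd14 went from 32.99, 29.96, 43.75 and 39.81 CPM to 66.7, 70.3 and 69.7 CPM (log2 fold change 0.79, SE 0.12, edgeR adjusted p = 0.000152). Tlr7 went from 34.8 to 43.7 CPM to 73.5, 80.5 and 76.6 CPM (log2 fold change 0.79, SE 0.10, edgeR adjusted p = 4.36e-05). Tlr8 went from 48.0 to 62.6 CPM to 101, 106 and 91.6 CPM (log2 fold change 0.67, SE 0.10, edgeR adjusted p = 0.000165). No resting library reached an inflamed one in these 3 genes, so 8 members were higher on the adjusted p alone and none lower, against 46.0% of all genes, 20.6% as higher and 25.4% as lower, and 8 had ranges apart, against 50.1% of all genes. For each of these 8 the exact permutation p was 0.0571, the smallest that 3 against 4 libraries allow. Tlr9 and Tlr3 did not pass the test. Inflamed Tlr9 libraries were widely spread at 3.199, 6.6 and 9.705 CPM, and without the lowest, replicate 2, its log2 fold change moved from 0.79 to 1.13 and its edgeR adjusted p from 0.0704 to 0.00352. Tlr3 was at 2.81, 7.15 and 4.30 CPM against 0.666 to 3.64 CPM (log2 fold change 1.15, SE 0.52, edgeR adjusted p = 0.097), and without resting replicate 1 it was called (1.72, edgeR adjusted p = 0.00746), as it was without inflamed replicate 2 (1.43, 0.0429), with DESeq2 (1.26, 0.0251) and with all 19 libraries in one fit (1.29, 0.0298). It was also called with the replicate numbers as a block (1.68, edgeR adjusted p = 0.0062). That fit leaves out resting replicate 1 too, as no inflamed library used has its number. Numbers were not taken to pair these libraries. The median log2 fold change was 1.152 over the members and −0.255 over all genes tested. The marker lists of the conventional dendritic cell (16.0 to 36.3 against 4.27 to 5.97 CPM), the plasmacytoid dendritic cell (43.4 to 62.7 against 76.6 to 84.7 CPM, of which Siglech was at 0.891 against 0.0762 CPM), the mature neutrophil (390 to 611 against 1917 to 2310 CPM), the tissue macrophage (223.4 to 300.8 against 633.7 to 648.7 CPM) and the monocyte (30830 to 43470 against 52230 to 56320 CPM) moved as well. The plasmacytoid dendritic cell sum rose through Tcf4 alone (47.29 ± 7.977 against 78.7 ± 4.132 CPM). Siglech, Ccr9, Pacsin1, Klk1, Cox6a2 and Ly6d of that list had lower means when inflamed. Most of the mature neutrophil sum was Mmp8 (451 ± 132.1 against 1606 ± 255.2 CPM), and the other genes of that list also had higher means when inflamed. Most of the tissue macrophage sum was Adgre1 (183.7 ± 30.92 against 586.2 ± 18.24 CPM), and Mertk and Axl also had higher means when inflamed. Vcam1 (26.19 ± 14.97 against 2.158 ± 1.539 CPM), C1qa, C1qb, C1qc, Cd163 and Cd5l of that list had lower means when inflamed. The part of these lists was not tested.

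Whether inflammation changed a gene differently in the 2 populations was tested as an interaction in one fit of the 15 monocyte libraries. Tlr7 was the single member with an adjusted p below 0.05. Its log2 change with inflammation was larger in CCR1/2+ve than in CCR2+ve cells by 0.92 (SE 0.19, edgeR adjusted p = 0.0473), where 0.397% of all genes tested (74) passed. The CCR2+ve libraries were already at 73.8 to 109 CPM at rest and at 67.0 to 99.5 CPM when inflamed, while CCR1/2+ve libraries went from at most 43.7 CPM to at least 73.5 CPM. The call was close to the threshold. Its adjusted p was 0.0595 with scaling by library size alone, and between 0.05 and 0.164 in 13 of the 15 fits that each left out 1 library, with differences of 0.81 to 0.97. Tlr13 (0.89, SE 0.22, adjusted p = 0.0732), Tlr8 (0.59, SE 0.14, 0.0725), Cd14 (0.59, SE 0.22, 0.26), Tlr2 (0.56, SE 0.16, 0.14) and Tlr6 (0.55, SE 0.18, 0.174) had differences of the same sign that did not pass the edgeR test. With DESeq2, 5 members passed (Tlr2, Tlr6, Tlr7, Tlr8 and Tlr13), as did 2.86% of all genes (534). With the replicate numbers as a block 3 members did (Tlr7, Tlr8, Tlr13), as did 1.19% of all genes (222). That block also ties resting to inflamed libraries of the same number, which were not taken to be paired. For Tlr4 (0.20, SE 0.19) and Tlr1 (−0.10, SE 0.19), which rose in both populations, no difference was found, with 1 exception in sign for Tlr1, 0.08 without resting CCR2+ve replicate 4.

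Inflamed CCR1/2+ve and inflamed CCR2+ve monocytes were compared to ask which receptors still separated the populations in inflammation. None of the 10 members passed, on the adjusted p alone or with the fold cutoff, in edgeR or in DESeq2, where 0.145% of all genes tested (27) passed both cutoffs in edgeR and 0.188% the adjusted p alone (0.123% as higher and 0.0643% as lower). At an unadjusted p below 0.05, which 8.98% of all genes had, there were 2 members, Tlr1 (log2 fold change −0.28, 95% interval −0.55 to −0.016) and Tlr13 (0.23, interval 0.004 to 0.45). Both had ranges apart, with Tlr1 at 49.6 to 52.6 CPM in CCR1/2+ve and 53.8 to 64.7 CPM in CCR2+ve libraries and Tlr13 at 650 to 710 against 537.7 to 624.7 CPM, against 9.71% of all genes. Tlr2 stood at 236 ± 16.9 (SD, n = 3) against 244 ± 4.79 CPM (SD, n = 4) and Cd14 at 68.9 ± 1.98 against 73.8 ± 7.97 CPM. The intervals of the log2 fold change were −0.28 to 0.15 for Tlr2, −0.39 to 0.16 for Cd14, −0.52 to 0.12 for Tlr7 and −0.17 to 0.38 for Tlr8. These bound the difference to less than the fold cutoff. For Tlr9 the interval was −1.43 to 0.017 and for Tlr3 −0.79 to 0.85, so a difference near the cutoff was not detectable for Tlr9 at its depth of 66 to 276 reads per library.

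The libraries labelled inflamed CCR1 held fewer reads of all 10 genes than either inflamed monocyte group, without overlap. All 10 passed both cutoffs against inflamed CCR2+ve monocytes, where 31.3% of all genes tested did (16.8% as lower) and 45.3% had ranges apart, and against inflamed CCR1/2+ve monocytes, where 27.7% did (14.6% as lower) and 47.4% had ranges apart. By the adjusted p alone 48.1% of all genes passed in the first comparison (22.7% as higher and 25.4% as lower) and 43.2% in the second (20.2% and 23.0%). Both comparisons use the same 4 libraries, which were low in the monocyte list and high in the mature neutrophil list above. Tlr4 differed least. It was at 46.8, 64.7, 62.9 and 64.1 CPM in the inflamed CCR1 libraries, 2.15-fold lower than in inflamed CCR2+ve monocytes (log2 fold change −1.11, SE 0.13, edgeR adjusted p = 2.55e-06) and 2.48-fold lower than in inflamed CCR1/2+ve monocytes. Its partner in lipopolysaccharide sensing, Cd14, was at 5.05, 6.01, 3.33 and 4.29 CPM, 15.7-fold lower than in inflamed CCR2+ve monocytes (log2 fold change −3.97, SE 0.18, edgeR adjusted p = 1.10e-11). Tlr4 alone of the members stood above its level in resting CCR2+ve monocytes (33.1 to 46.2 CPM), but its lowest library, at 46.8 CPM, was nearly level with the highest of these. Its range overlapped that of resting CCR1/2+ve monocytes (31.67 to 47.31 CPM). Neither comparison was tested.

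The other surface receptors were between 9.33-fold (Tlr6, 6.92 to 10.4 CPM) and 23.5-fold (Tlr2, 9.15 to 11.6 CPM) lower in the inflamed CCR1 libraries than in inflamed CCR2+ve monocytes, with Tlr1 (3.23 to 8.10 CPM) 12.7-fold lower. Among the endosomal receptors Tlr7 differed least, at 6.05, 7.32, 7.67 and 9.94 CPM (11.2-fold lower, log2 fold change −3.49, SE 0.17, edgeR adjusted p = 3.22e-11). Tlr8 was at 0.592, 0.995, 1.48 and 1.13 CPM (86.2-fold lower, log2 fold change −6.43, SE 0.20, edgeR adjusted p = 1.10e-13). Tlr13 was at 4.69, 8.00, 5.50 and 9.28 CPM, from 103 to 197 reads, against 537.7 to 624.7 CPM in inflamed CCR2+ve monocytes (84.2-fold lower, log2 fold change −6.40, SE 0.20, edgeR adjusted p = 5.19e-13). The most abundant receptor of the monocyte groups was thus among those with the largest differences. Tlr9 had 1, 4, 4 and 0 reads and Tlr3 2, 5, 0 and 6 reads in these libraries, so their fold changes (log2 −6.59, SE 0.41, and −4.89, SE 0.53) rest on 9 and 13 reads. The monocyte list was lower and the mature neutrophil list higher in these libraries, as given above, and their part in the members' differences was not tested.

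Because partners form dimers or hand over ligand, 4 ratios of reads per exonic kb were formed within each library, which do not depend on the scaling between libraries. They and their 24 exact permutation tests were chosen after the values of the genes were seen. The ratio of Cd14 to Tlr4 was 5.07 ± 0.768 (SD, n = 4) in resting CCR2+ve and 3.18 ± 0.285 (SD, n = 4) in resting CCR1/2+ve monocytes, and 1.87 ± 0.336 (SD, n = 4) and 1.51 ± 0.210 (SD, n = 3) in the inflamed counterparts. It was 0.257 ± 0.0799 (SD, n = 4) in the inflamed CCR1 libraries. The 2 resting groups did not overlap each other, and each exceeded its inflamed counterpart in every library. The ratio of Tlr1 to Tlr2 was 0.114 ± 0.0258 in resting and 0.225 ± 0.0170 in inflamed CCR2+ve monocytes (SD, n = 4 each), with ranges apart, and 0.155 ± 0.0350 (n = 4) and 0.194 ± 0.00729 (n = 3) in CCR1/2+ve monocytes, with ranges that overlapped. The ratio of Tlr6 to Tlr2 was 0.193 ± 0.0140 at rest and 0.270 ± 0.0469 in inflammation in CCR2+ve cells (n = 4 each) and 0.225 ± 0.0242 (n = 4) and 0.314 ± 0.0211 (n = 3) in CCR1/2+ve cells, apart in both. Tlr2 thus exceeded either partner per kb in every group. Any read pairs lost to the shared stretches would lower the measured levels of Tlr1 and Tlr6.

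The ratio of Tlr7 to Tlr8 was 0.628 ± 0.0228 in resting CCR1/2+ve and 0.970 ± 0.118 in resting CCR2+ve monocytes (SD, n = 4 each), without overlap. In inflammation it was 0.682 ± 0.0476 (n = 3) and 0.853 ± 0.208 (n = 4), with overlap, and in the inflamed CCR1 libraries 6.93 ± 1.89 (n = 4). The smallest exact two-sided permutation p of these tests was 0.0286, reached in each comparison of 4 against 4 libraries without overlap, and the smallest after Benjamini-Hochberg adjustment over the 24 tests was 0.0763, so none passed 0.05.

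**Figure D3:**
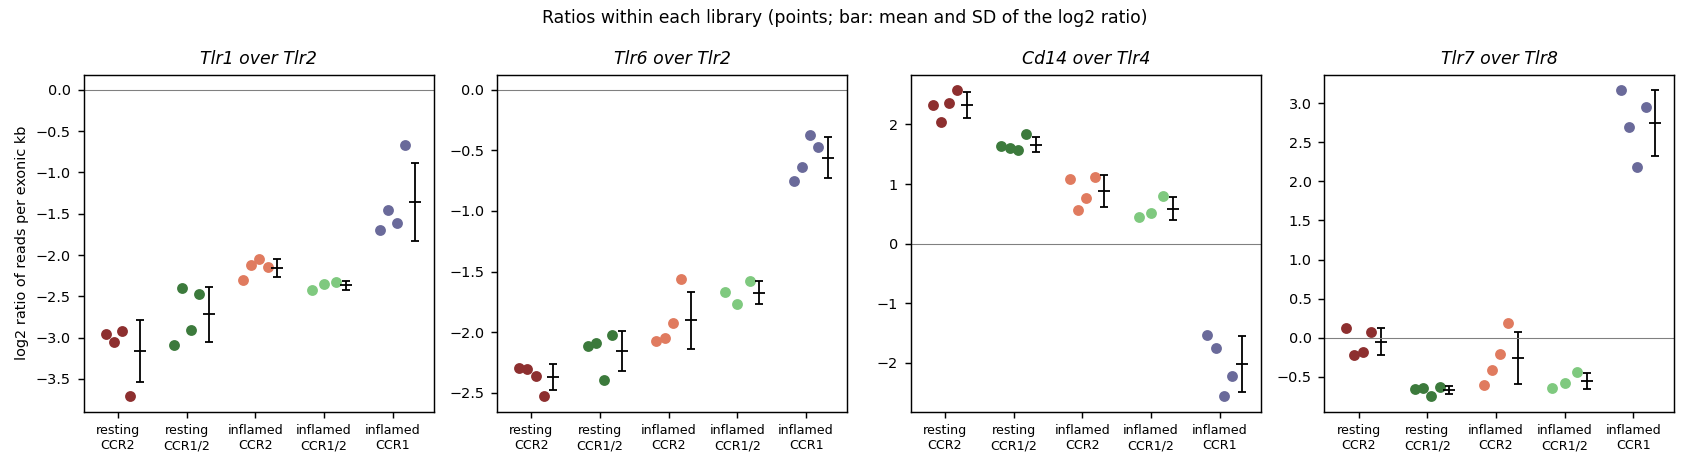
Log2 of the ratio of reads per exonic kb (y axis, its own range in each panel) for 4 pairs of genes within each library (points) by group (x axis), with the mean and SD of the log2 ratio as a bar. Cd14 over Tlr4 was highest in resting CCR2+ve libraries (mean log2 2.33) and lowest in inflamed CCR1 libraries (−2.02), and Tlr7 over Tlr8 was near 0 in resting CCR2+ve libraries (−0.05) and at 2.75 in inflamed CCR1 libraries.

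A list of 39 other genes of the pathway, from co-receptors to inhibitors, was read in the same fits. Of these, 36 were tested. The flagellin receptor Tlr5, singled out after its values were seen, rose in both inflamed populations, from 3.53 ± 0.680 to 9.97 ± 2.35 CPM (SD, n = 4 each, log2 fold change 1.43, edgeR adjusted p = 4.18e-05) in CCR2+ve and from 3.37 ± 0.960 to 9.39 ± 2.13 CPM in CCR1/2+ve monocytes (1.35, 0.0011). In resting CCR1/2+ve against resting CCR2+ve cells, 1 gene of the 36 was higher past both cutoffs (2.34% of all genes were) and 3 were lower (1.90%). The higher one was Lbp, which delivers lipopolysaccharide to Cd14, at 38.2 ± 6.05 against 16.9 ± 3.68 CPM (SD, n = 4 each, log2 fold change 1.26, edgeR adjusted p = 0.000231). The lower ones were Pik3ap1, an adaptor to phosphoinositide 3-kinase (13.2 ± 0.951 against 31.5 ± 6.84 CPM), the scavenger receptor Cd36, which assists Tlr2 (3.01 ± 0.972 against 9.43 ± 3.11 CPM), and Irf7, the interferon regulatory factor downstream of Tlr7 and Tlr9 (166 ± 57.3 against 372 ± 111 CPM). Their log2 fold changes were −1.17, −1.57 and −1.09 (edgeR adjusted p = 0.000219, 0.00159 and 0.0261). On the adjusted p alone, 14 of the 36 were lower and 1 higher, against 8.44% of all genes in each direction. The median of the list was −0.322. Without resting CCR2+ve replicate 1, 1 gene in place of 3 was lower past both cutoffs.

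With inflammation, 6 of the 36 genes rose and 9 fell past both cutoffs in CCR2+ve monocytes (9.37% of all genes rose and 19.2% fell), and 8 rose and 7 fell in CCR1/2+ve monocytes (9.16% and 19.4%). Among the adaptors, Myd88, on which all Toll-like receptors but Tlr3 rely, rose from 179 ± 19.1 to 448 ± 25.1 CPM in CCR2+ve cells (SD, n = 4 each, log2 fold change 1.26, edgeR adjusted p = 6.29e-08) and from 122 ± 19.6 (n = 4) to 419 ± 18.5 CPM (n = 3) in CCR1/2+ve cells (1.66, 2.15e-07). Ticam1, the adaptor of Tlr3 and of endosomal Tlr4, rose in CCR1/2+ve cells from 4.997 ± 0.5494 to 20.7 ± 3.21 CPM (1.92, edgeR adjusted p = 2.20e-06), and in CCR2+ve cells as well (1.54, 2.28e-05). Both genes had their highest mean in inflamed CCR2+ve cells, with Ticam1 at 23.3 ± 5.37 CPM. Neither passed the test between the inflamed populations (Myd88 log2 fold change −0.11, edgeR adjusted p = 0.774, and Ticam1 −0.19, 0.823). Of the kinase complexes, Tab1, a partner of the kinase Map3k7, rose in both populations (log2 fold changes 1.34 and 1.79), as did Ikbke (1.30 and 1.33). Ikbkg, the gene of the regulatory subunit of the IκB kinase complex, rose past both cutoffs in CCR1/2+ve cells (1.20) and on the adjusted p alone in CCR2+ve cells (0.77, edgeR adjusted p = 2.6e-05). The lysosomal transporter Slc15a3 rose from 24.0 ± 4.41 to 77.8 ± 10.6 CPM in CCR2+ve cells (log2 fold change 1.63, edgeR adjusted p = 2.41e-07), and also rose in CCR1/2+ve cells (1.58, 9.49e-06).

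The genes that fell with inflammation included co-receptors and inhibitors. The inhibitory kinase relative Irak3 fell from 112 ± 9.48 to 15.7 ± 3.72 CPM in CCR2+ve cells (SD, n = 4 each, log2 fold change −2.89, edgeR adjusted p = 1.86e-09) and from 87.6 ± 11.5 (n = 4) to 14.5 ± 2.69 CPM (n = 3) in CCR1/2+ve cells (−2.72, 8.34e-08). Socs1, an inhibitor of cytokine and Toll-like receptor signals, fell from 13.0 ± 4.47 to 0.860 ± 0.455 CPM and from 6.85 ± 2.65 to 0.669 ± 0.137 CPM (log2 fold changes −3.98 and −3.49). In each population 3 of the 5 inhibitor genes fell (Irak3, Tnfaip3, Socs1) and none rose past both cutoffs, where 19.2% of all genes fell in CCR2+ve and 19.4% in CCR1/2+ve cells. Ly86, the partner of a Toll-like receptor homologue, fell from 576 ± 48.6 to 231 ± 26.0 CPM and from 389 ± 28.4 to 195 ± 25.0 CPM (log2 fold changes −1.39 and −1.13). The ligase gene Traf6 fell in both populations (−1.08 and −1.10), and the kinase gene Irak1 fell past both cutoffs in CCR2+ve cells (−1.23) and on the adjusted p alone in CCR1/2+ve cells (−0.73, edgeR adjusted p = 0.000481). Ly96, which encodes the MD-2 protein that binds lipopolysaccharide on Tlr4 and was singled out after its values were seen, moved against Tlr4, from 39.2 ± 3.98 to 15.2 ± 4.26 CPM in CCR2+ve cells (log2 fold change −1.44, edgeR adjusted p = 7.87e-06) and from 30.5 ± 3.55 to 18.2 ± 2.12 CPM in CCR1/2+ve cells (−0.87, 0.000217). The median of the list was 0.09 in CCR2+ve and 0.2 in CCR1/2+ve cells, beside medians of all genes of −0.103 and −0.255.

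**Figure D4:**
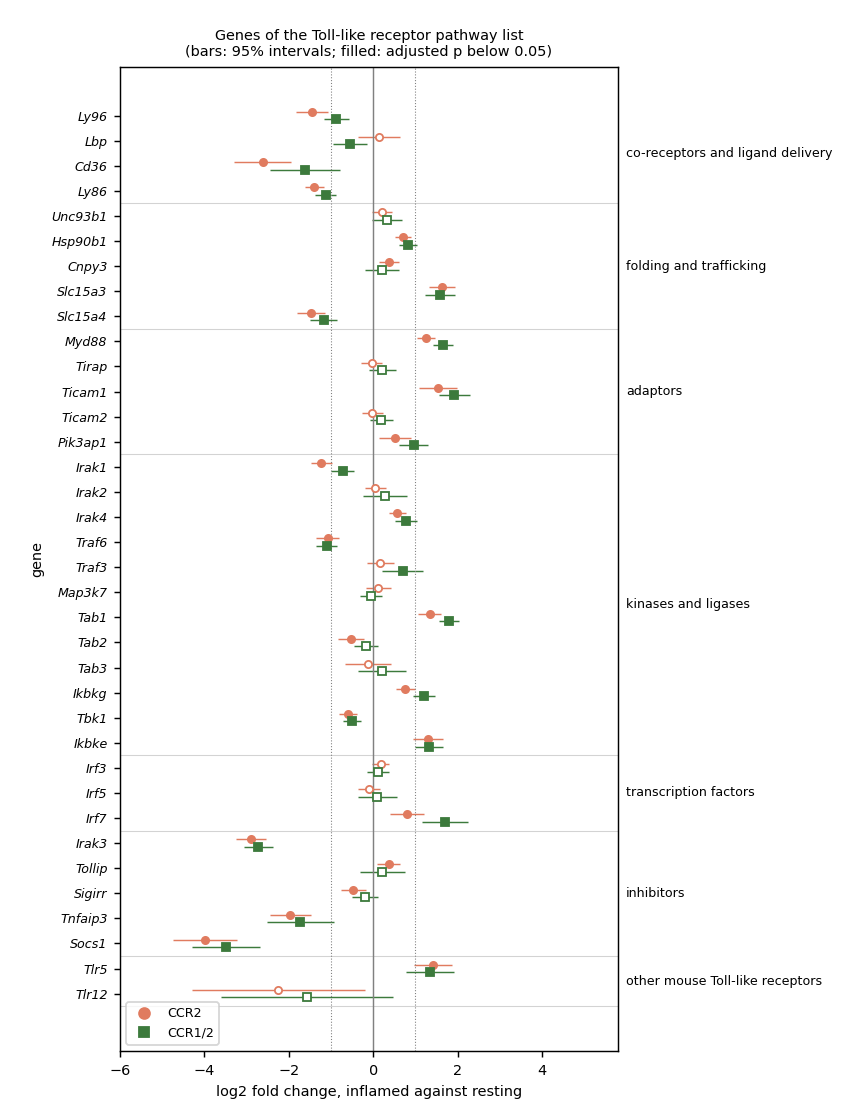
Log2 fold changes of inflamed against resting monocytes (x axis, log2 scale) for the 36 tested genes of the pathway list (y axis, grouped by role) in CCR2+ve (circles) and CCR1/2+ve cells (squares), with 95% intervals as bars and filled symbols for an adjusted p below 0.05. The inhibitors Socs1, Irak3 and Tnfaip3 lie to the left of −1 in both populations, and Myd88, Ticam1, Tab1, Ikbke, Slc15a3 and Tlr5 to the right of 1.

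Between the inflamed populations none of the 36 genes passed in edgeR, 2 having an unadjusted p below 0.05, against 8.98% of all genes. Against inflamed CCR2+ve monocytes, the inflamed CCR1 libraries had 3 genes of the 36 higher (14.4% of all genes were) and 14 lower (16.8%), and against inflamed CCR1/2+ve monocytes 5 higher (13.2%) and 12 lower (14.6%). Of the higher genes Lbp differed most, at 145 ± 11.9 CPM (SD, n = 4) against 19.5 ± 7.56 CPM in inflamed CCR2+ve monocytes (log2 fold change 2.90, edgeR adjusted p = 1.45e-07). Traf3 (35.3 ± 4.97 against 13.8 ± 1.41 CPM) and Irak3 (35.8 ± 3.96 against 15.7 ± 3.72 CPM) were the others. Against inflamed CCR1/2+ve monocytes, Pik3ap1 (94.5 ± 13.5 CPM, log2 fold change 1.74) and the endosomal transporter Slc15a4 (40.0 ± 2.05 CPM, 1.14) were higher as well. The lower genes included Slc15a3 (0.506 ± 0.180 CPM, log2 fold change −7.24 against inflamed CCR2+ve), Ly86 (3.04 ± 0.972 CPM, −6.23), Irf7 (25.8 ± 4.36 CPM, −4.71), the Tlr4 adaptor Ticam2 (5.78 ± 0.763 CPM, −3.24) and Myd88, at 120 ± 8.68 CPM (−1.81 against inflamed CCR1/2+ve).

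The genes whose profile over the 5 groups was most like that of each member were found as those with the smallest root mean square difference between centred log2 means, among 7685 genes with a mean of at least 10 CPM. This describes 5 group means and carries no test. Tlr2 was followed most closely by Mpeg1, a pore-forming protein of macrophages, at a difference of 0.03 (log2), then by Samhd1 (0.08). The nearest to Cd14 was Fyb (0.05), to Tlr8 the predicted gene Gm8953 and the interferon-induced Mx1 (0.06 each), and to Tlr7 the interferon-induced Ifitm3 (0.10). Tlr4 lay nearest to Ankfy1 and Apobr (0.08 and 0.09), Tlr1 to Slc12a9 and Slc38a7 (0.08 and 0.09), Tlr9 to Itgb5 (0.09) and Tlr13 to Slfn1 (0.09). Slc38a7 was also the nearest to Tlr6 (0.15). Tlr3 was too scarce for this comparison, which took members with a mean of at least 5 CPM. The large gap between the inflamed CCR1 libraries and the rest weighs on all these profiles.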

How the data were processed

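RNA of 19 libraries of sorted bone marrow cells was sequenced as read pairs after a low-input library preparation. The counts per gene were deposited by the authors as raw whole numbers, made with fastp, STAR 2.7.10a and GRCm38 (Ensembl annotation), from reads that aligned to 1 place. The strand setting of counting is not given in the sources used here. Of the 20 columns of counts, 1 has no sample among those described and was left out. The labels give no batch, so batch and condition cannot be told apart.

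The 18652 genes that averaged 1 read or more per library entered tests with edgeR 4.0.16 (limma 3.58.1, R 4.3.3), by its quasi-likelihood test with TMM factors on the 2 groups compared, and p-values were adjusted over all genes tested by Benjamini-Hochberg. Calls needed an adjusted p below 0.05 and a log2 fold change of at least 1 in size. The interaction used 15 libraries and the adjusted p alone. Levels are CPM with TMM factors over the 19 libraries, per kb of GENCODE M21 exonic length where genes are compared, and log2 profiles used a prior of 0.5 CPM. Normalized counts of each member were also compared by exact permutation in scipy 1.17.1. Neither these tests nor the main edgeR fits used any pairing of libraries. Intervals are 95%, from the t distribution at each gene's degrees of freedom in the edgeR fit. DESeq2 1.42.0, other scalings and filters, a GC and length correction, the replicate number as a block and leaving out each library were alternatives. The script was tested on simulated data.

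All 10 members were named throughout. Of the pathway list, up to 4 genes called in each direction with the smallest p were named per comparison, and up to 3 nearest profiles per member. The members and lists were chosen with earlier results of these data known, and they include marker lists of 6 cell types. The B cell list summed to 18.3 to 41.9 CPM over all libraries.

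Same-numbered libraries deviated together over 7685 genes in every pair for resting CCR1/2 against resting CCR2 (r = 0.306 to 0.611) and inflamed CCR1 against inflamed CCR2 (0.134 to 0.247), so numbers were taken to pair the libraries there, from the correlation alone. In inflamed against resting CCR1/2 every same-numbered pair also had a positive r (0.075 to 0.208). Resting and inflamed cells come from different mice, so numbers were not taken to pair those libraries, and a positive r alone does not show pairing. They were not taken to pair libraries in the other comparisons either. Between 2 groups the block used only numbers present in both, so with inflamed CCR1/2 it left out replicate 1 of the other group.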

Additional observations from a re-analysis of the deposited data

Results flagged for a closer look

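The change of Tlr7 with inflammation differed between the populations, by a log2 value of 0.92 (0.9185 unrounded) in the interaction fit (edgeR adjusted p = 0.0473), with CCR1/2+ve libraries all higher when inflamed and CCR2+ve libraries overlapping. It did not pass with scaling by library size alone (adjusted p = 0.0595), nor in most of the 15 fits that each left out 1 library (edgeR adjusted p up to 0.164).

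Among 40 groups of 4 libraries, 2 had a library far from the other 3 by Dixon's ratio (critical value 0.829), and chance flags about 1 in 20 groups. Tlr4 was lowest in replicate 1 of the inflamed CCR1 libraries, at 46.8 CPM (ratio 0.90). Tlr8 was lowest in replicate 2 of resting CCR2+ve monocytes, at 75.5 CPM (ratio 0.913).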

How the results depend on the processing

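Alternative settings gave 1270 results for members' fold changes, among them the main fits read without the fold cutoff. Of the 1270 results, 1205 kept their direction and call, 29 gained a call, 17 lost one and 19 changed sign. Some of the gains came from dropping the fold cutoff alone. Some results that kept their call had an adjusted p that crossed its cutoff, such as Tlr9 with inflammation in CCR2+ve cells. All 180 refits of the ratios without 1 library kept their direction. Those ratio refits were chosen after seeing the data. Without the fold cutoff, members called numbered 7 between resting populations, 5 with inflammation in CCR2+ve and 8 in CCR1/2+ve cells, and pathway genes 14 lower between resting populations, 13 higher and 12 lower with inflammation in CCR2+ve cells, 12 higher and 11 lower in CCR1/2+ve cells, 9 higher and 22 lower in inflamed CCR1 against CCR2, and 9 higher and 19 lower against CCR1/2. Members with an interaction numbered 5 with DESeq2, 0 with library size alone, 3 with the replicate number as a block (not taken to pair resting with inflamed libraries) and 0 to 3 without 1 library. Without 1 library, members called between resting populations numbered 1 to 2 and pathway genes lower 1 to 4. Sign changes were those of Tlr4 between resting populations (library size 0.0332; without 1 library −0.15 to 0.0442), Tlr8 in CCR2+ve cells with inflammation (library size −0.0344; without 1 library −0.0074 to 0.128), Tlr8 between inflamed populations with GC correction (−0.0028), and Tlr3 there (library size −0.0038, GC −0.0642, block −0.16, block with GC −0.24, without 1 library −0.39 to 0.395), none of which passed a test. In the interaction, without 1 library, Tlr9 ranged from −0.24 to 0.511 and Tlr1 from −0.203 to 0.0772. Genes called between inflamed populations numbered 27, but 107 with DESeq2 and 83 with the block, and genes with an interaction 74, but 534 with DESeq2, 222 with the block and 0 to 253 without 1 library. In these the cause was not tested. Where numbers were taken to pair libraries, the block changed no member's call. Tlr3 and Tlr9, with at most 157 and 276 reads in a library, had the widest intervals.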
